A study of Mus musculus with 11 samples.

Results

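Chemokines are small secreted proteins that guide the movement of cells along a gradient, and 10 of their genes were followed here in cultured stroma of the fetal mouse lung. The genes were Cxcl1, Cxcl5, Cxcl10, Cxcl12, Cxcl14 and Cxcl16 of the CXC family and Ccl2, Ccl5, Ccl7 and Ccl11 of the CC family. They were chosen by symbol, and all 10 were found among the 24062 gene rows of the count tables. RNA-seq had been made from mesenchymal cells of embryonic day 15 mouse lungs, which were isolated by their rapid adhesion to culture plastic and passaged before lysis. The 11 libraries held 4 WT cultures with both Sp3 alleles, 4 Sp3+/- cultures with a single functional allele and 3 Sp3-/- cultures without a functional allele. Sp3 is a transcription factor that binds GC-rich promoter elements (GC boxes). The alleles were those of a germline Sp3 mutant mouse line, and the labels name no treatment in any group. The labels do not say whether each library came from its own embryo, and p-values measure only the spread between these libraries.

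In tissue, chemokines bind to G protein-coupled receptors on the responding cell and are held in place by glycosaminoglycans of the matrix. Cxcl12 acts through Cxcr4 and is scavenged by Ackr3, and it is a typical product of fibroblasts and other stromal cells. Cxcl1 and Cxcl5 attract neutrophils through Cxcr2, Ccl2 and Ccl7 attract monocytes through Ccr2, Ccl11 attracts eosinophils through Ccr3, and Ccl5 attracts T cells and monocytes. Cxcl10 is induced by interferon and acts through Cxcr3, Cxcl16 is made as a membrane-bound ligand of Cxcr6, and Cxcl14 is a chemokine of epithelia and stroma.

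The libraries held 9849111 to 59297495 reads assigned to genes. Levels are given as log2 CPM (reads per library size, with TMM factors of all 11 libraries and a prior count of 2). Sp3 itself measured 5.94 to 6.75 log2 CPM in WT, 5.71 to 6.15 in Sp3+/- and 3.89 to 4.23 in Sp3-/- libraries, with overlap between WT and Sp3+/- only. All 12 mesenchymal markers examined were detected. Their summed level was 7990 CPM in Sp3-/- replicate 3 and 13700 to 23000 CPM in the other libraries. The library titles end in no suffix, 2 or 3, and the sources used here do not say what the suffix marks. All 3 Sp3-/- libraries, WT replicate 1 and Sp3+/- replicate 4 have no suffix, whereas WT replicates 2 to 4 and Sp3+/- replicates 2 and 3 have suffix 3 and Sp3+/- replicate 1 has suffix 2. The libraries without a suffix also carried the highest levels of macrophage transcripts. The summed level of 14 macrophage markers was 3410 to 12500 CPM in the 5 libraries without a suffix and 419 to 986 CPM in the other 6.

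Because GC boxes are the sites that Sp3 binds, the 250 bases before the transcript start were read for the chemokines that the RefSeq promoter table (GRCm38.p6) holds. These were 4 of the 10 genes, Cxcl1, Cxcl10, Cxcl12 and Cxcl14, and the table gave no entry for Cxcl5, Cxcl16, Ccl2, Ccl5, Ccl7 or Ccl11. The whole Cxcl14 window lies inside the span of that gene given below, and it is not used here. The promoter of Cxcl12 is shown because Cxcl12 was called lower in Sp3-/- cells, and capitals mark each GC box (GGGCGG on either strand).
Cxcl12, chr6:117168285-117168534, plus strand: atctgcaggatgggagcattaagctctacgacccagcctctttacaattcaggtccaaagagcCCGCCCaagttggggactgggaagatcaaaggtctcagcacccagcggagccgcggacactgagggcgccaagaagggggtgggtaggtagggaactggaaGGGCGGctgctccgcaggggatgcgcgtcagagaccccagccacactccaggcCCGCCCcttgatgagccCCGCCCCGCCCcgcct
The Cxcl12 window held 5 GC boxes, 3 of them in the last 33 bases before the start, where the last 2 share a base. The windows of Cxcl1 and Cxcl10 held none, and 32.7% of 32851 RefSeq promoter windows of this length held at least 1. The core of the interferon-stimulated response element (TTTC, any 2 bases and TTTC again, on either strand) occurred in 2.98% of the windows. It was found once in Cxcl10, which is printed from chr5:92348890-92349139, minus strand, with this core in capitals.
Cxcl10: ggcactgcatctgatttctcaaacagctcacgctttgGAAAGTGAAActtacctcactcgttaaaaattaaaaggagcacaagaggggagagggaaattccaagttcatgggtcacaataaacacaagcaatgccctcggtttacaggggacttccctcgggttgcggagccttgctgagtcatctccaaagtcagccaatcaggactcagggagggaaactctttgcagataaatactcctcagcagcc
These matches describe the letters of the windows and were not tested as binding sites.

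Cxcl12 was by far the most abundant of the chemokines. Per kilobase of the canonical transcript, its mean level in WT cells was 175 CPM (range 92.9 to 254, n = 4). Ccl2 followed at 14.5 CPM per kilobase (10.9 to 16.9) and Ccl7 at 7.90 (5.65 to 9.72). The ranges of Cxcl12 and Ccl2 did not overlap, nor did those of Ccl2 and Ccl7. Cxcl16 measured 5.80 CPM per kilobase (3.79 to 9.82), which overlapped with Ccl7. Cxcl14 at 1.79 (0.917 to 3.47) and Cxcl10 at 1.39 (0.941 to 1.94) overlapped with each other and lay below the Cxcl16 range. Ccl5 at 0.488 (0.263 to 0.719) and Cxcl1 at 0.479 (0.309 to 0.677) overlapped with each other and lay below the Cxcl10 range. Ccl11 at 0.0155 and Cxcl5 at 0.0129 CPM per kilobase were last, below the ranges of Ccl5 and Cxcl1.

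The order of the means in Sp3+/- cells began with Cxcl12 at 142 CPM per kilobase, Ccl2 at 11.1, Cxcl16 at 5.35 and Ccl7 at 4.71. Cxcl14 at 1.56, Cxcl10 at 1.12, Cxcl1 at 0.365 and Ccl5 at 0.217 followed. In Sp3-/- cells Cxcl12 stood at 35.0 CPM per kilobase (15.5 to 49.3, n = 3), and its range overlapped with that of Cxcl16 at 20.1 (15.8 to 22.3). Ccl2 at 12.9 (7.63 to 15.6) came next by mean, and its range overlapped slightly with that of Cxcl12. Cxcl14 at 4.99 (2.47 to 6.26) and Ccl7 at 4.65 (2.27 to 5.85) overlapped with each other. Ccl5 at 1.64 (0.416 to 3.64), Cxcl10 at 0.917 (0.421 to 1.67) and Cxcl1 at 0.501 (0.299 to 0.855) overlapped as well. The Ccl5 mean was raised by Sp3-/- replicate 3 (3.64), with 0.416 and 0.866 in replicates 1 and 2. The share of Cxcl12 in the summed CPM of the 10 genes shows the same shift. It was 89.4% to 97.6% in WT, 90.0% to 97.0% in Sp3+/- and 81.4%, 68.9% and 45.1% in the 3 Sp3-/- libraries.

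**Figure D1:**
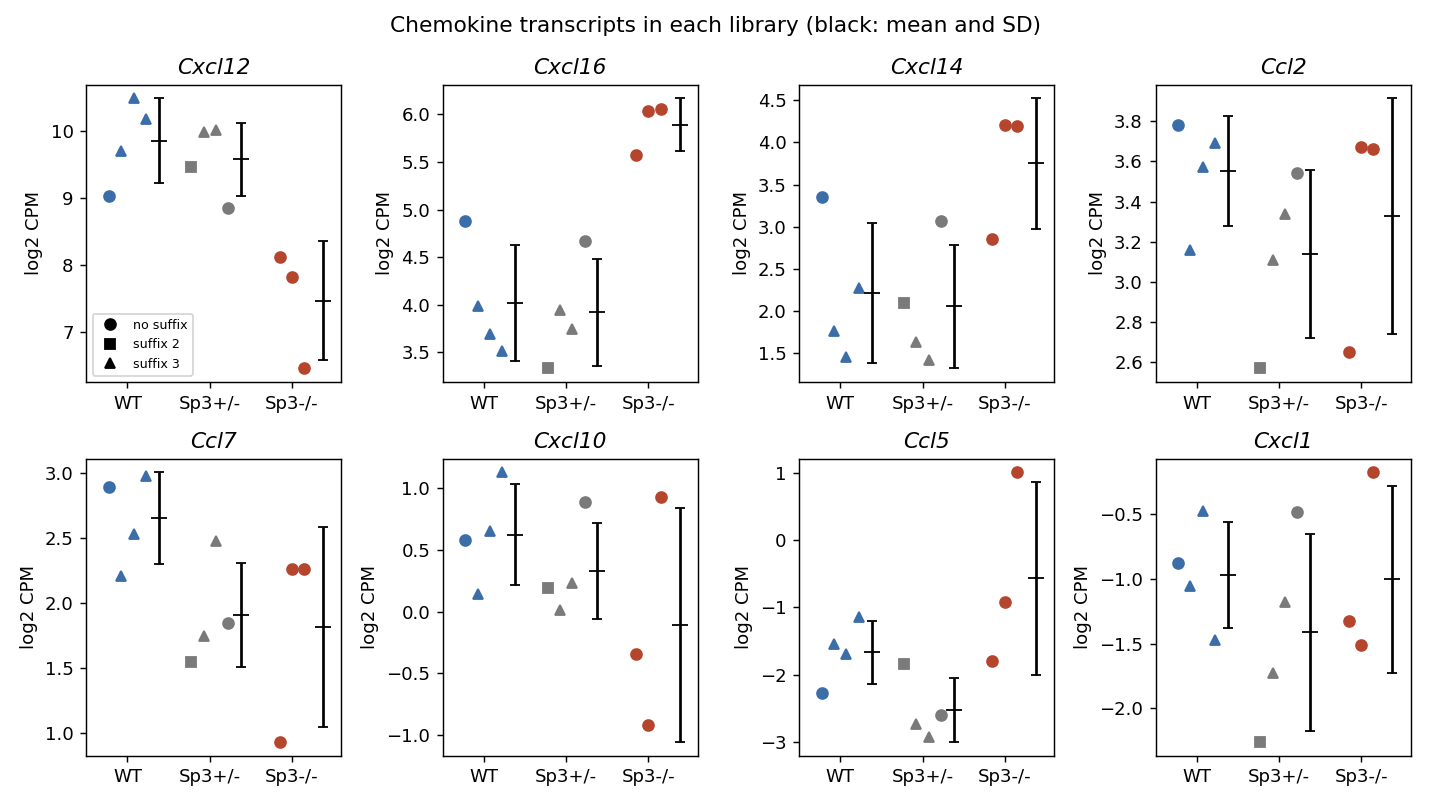
Levels of 8 chemokine transcripts in log2 CPM (vertical axes, each with its own scale) by genotype, with a point for each library and the marker shape giving the title suffix. Black bars are the mean and SD. The 3 Sp3-/- libraries sit below all others for Cxcl12 (6.46 to 8.13) and above all others for Cxcl16 (5.57 to 6.06).

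Sp3-/- cells were first compared with WT cells, to ask which chemokine transcripts depend on Sp3 in this stroma. Cxcl12 was lower and Cxcl16 was higher in Sp3-/- cells, and both passed the test. Cxcl14 and Ccl5 had higher fitted values, and Cxcl10, Ccl2 and Ccl7 lower ones, that did not pass it. Genes with more than 1 CPM in at least 1 library were tested with edgeR's quasi-likelihood test and called at a Benjamini-Hochberg adjusted p below 0.05 over all 14025 genes tested. Of the 7 chemokines tested, 2 were called, 1 higher and 1 lower. Among all genes tested 18.5% were called, 8.76% higher and 9.77% lower. The split over all genes depended on the scaling, with 1229 genes higher and 1370 lower after TMM and 983 higher and 1671 lower after upper-quartile scaling. The genotypes did not overlap for 2 of the 7 chemokines and for 31.6% of all genes. Whether these counts set the chemokines apart from other genes was not tested, and the values below are those of single genes.

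Cxcl12 (gene ID 20315, chromosome 6 of GRCm38.p6 from 117168535 to 117181368) counted 18737, 12149, 35536 and 39572 reads in WT replicates 1 to 4. These counts correspond to 9.04, 9.71, 10.49 and 10.19 log2 CPM. The Sp3-/- replicates 1 to 3 counted 10043, 10344 and 859 reads, at 8.13, 7.83 and 6.46 log2 CPM. Every Sp3-/- library lay below every WT library. Within the WT group the library without a suffix was the lowest. Sp3-/- replicate 3, the smallest library of the series and the lowest in summed mesenchymal markers (7990 CPM), was the lowest of all. The mean was 9.86 ± 0.63 log2 CPM in WT (SD, n = 4) and 7.47 ± 0.89 in Sp3-/- (SD, n = 3). The fitted log2 fold change was -2.32 (standard error 0.49, 95% interval -3.47 to -1.17), a 5.00-fold lower level, with an adjusted p of 0.0238 from edgeR. In these bulk cultures, fewer cells of a type that makes Cxcl12 and less Cxcl12 RNA per cell cannot be told apart. The call was lost on leaving out WT replicate 2 (adjusted p = 0.0539, edgeR), WT replicate 3 (0.0605), WT replicate 4 (0.0627) or Sp3-/- replicate 2 (0.0818), while the log2 fold change stayed between -2.65 and -1.97. With the title suffix as a covariate the log2 fold change was -1.40 (adjusted p = 0.0756, edgeR), and among the libraries without a suffix it was -1.42 (adjusted p = 0.557, edgeR), from 3 Sp3-/- libraries and a single WT library. In the covariate fit of all 11 libraries, Sp3+/- replicate 1 is the only library with suffix 2 and so adds nothing to the genotype estimate.

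Cxcl16 (gene ID 66102, chromosome 11 from 70454389 to 70459984) went in the opposite direction. Its counts were 1045, 229, 316 and 383 in WT replicates 1 to 4, at 4.88, 3.99, 3.69 and 3.51 log2 CPM. In Sp3-/- replicates 1 to 3 they were 1701, 2988 and 652, at 5.57, 6.04 and 6.06 log2 CPM. The lowest Sp3-/- library was above the highest WT library, which was again WT replicate 1. The log2 fold change was 1.80 (standard error 0.34, 95% interval 1.01 to 2.58), a 3.47-fold higher level, with an adjusted p of 0.0171 from edgeR. The call was lost without WT replicate 2 (adjusted p = 0.0539, edgeR), WT replicate 3 (0.0536) or Sp3-/- replicate 2 (0.0668). It held with the suffix covariate at a log2 fold change of 1.13 (adjusted p = 0.0174, edgeR). The call was lost when the suffixes were taken from the file names (1.03, adjusted p = 0.283, edgeR). In that setting WT replicate 1 is the only other library that shares the lack of a suffix with the Sp3-/- libraries. Among the libraries without a suffix the value was 1.02 (adjusted p = 0.419, edgeR). Cxcl16 overlaps the gene Zmynd15 by 552 bases, and whether reads were counted by strand is not given in the sources used here. Zmynd15 itself counted 31 to 191 reads, against 139 to 2988 for Cxcl16.

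Cxcl14 (gene ID 57266, chromosome 13 from 56288643 to 56296811) measured 3.35, 1.76, 1.46 and 2.27 log2 CPM in WT and 2.86, 4.20 and 4.19 in Sp3-/- libraries. The groups overlapped, since WT replicate 1 was above Sp3-/- replicate 1. The difference of 1.47 on the log2 scale (SE of the fit 0.52, adjusted p = 0.0851, edgeR) did not pass the test. It passed without WT replicate 1, at 2.01 (adjusted p = 0.0154, edgeR), and with DESeq2 (1.49, adjusted p = 0.0211). With the suffix covariate the value was 0.49 (adjusted p = 0.483, edgeR), and it was 0.50 among the libraries without a suffix.

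Ccl2 and Ccl7, neighbouring genes of the monocyte-attracting group on chromosome 11 (82035577 to 82037452 and 82045712 to 82047525), did not pass the test. Ccl2 (gene ID 20296) measured 3.78, 3.16, 3.57 and 3.69 log2 CPM in WT and 2.65, 3.67 and 3.66 in Sp3-/- libraries, of which only Sp3-/- replicate 1 was below the WT range. Its log2 fold change was -0.17 (95% interval -0.84 to 0.50, adjusted p = 0.697, edgeR). Ccl7 (gene ID 20306) measured 2.89, 2.21, 2.53 and 2.98 log2 CPM in WT and 0.93, 2.26 and 2.26 in Sp3-/- libraries, with a log2 fold change of -0.77 (95% interval -1.66 to 0.12, adjusted p = 0.181, edgeR). Among the WT and Sp3-/- libraries, both genes were lowest in Sp3-/- replicate 1. The ratio of Ccl7 to Ccl2 counts, which no scaling of the libraries can change, was 0.537, 0.516, 0.485 and 0.609 in WT, 0.488, 0.387, 0.545 and 0.305 in Sp3+/- and 0.296, 0.372 and 0.374 in Sp3-/- libraries. All Sp3-/- ratios were below all WT ratios, and 1 of the 4 Sp3+/- ratios lay within the Sp3-/- range. The ratio was chosen after its values were seen and was not tested.

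Cxcl10 (gene ID 15945, chromosome 5 from 92346638 to 92348889) was a low transcript with 15 to 72 reads in a library. It measured 0.58, 0.14, 0.65 and 1.13 log2 CPM in WT and -0.34, -0.92 and 0.93 in Sp3-/- libraries, so that the Sp3-/- libraries spanned almost the whole range. Its log2 fold change was -0.74 (95% interval -1.94 to 0.46, adjusted p = 0.333, edgeR). Cxcl10 lies within the gene Art3, which counted 1 to 27 reads.

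Ccl5 (gene ID 20304, chromosome 11 from 83525778 to 83530518) passed the filter on low values only through Sp3-/- replicate 3. It counted 5, 4, 6 and 13 reads in WT replicates 1 to 4 and 8, 21 and 19 reads in Sp3-/- replicates 1 to 3. On the log2 CPM scale these were -2.28, -1.55, -1.70 and -1.15 in WT and -1.80, -0.92 and 1.01 in Sp3-/- libraries. The groups overlapped, and the difference of 1.54 on the log2 scale (SE of the fit 0.80, adjusted p = 0.202, edgeR) did not pass the test. Ccl5 also lies within the span of Gm32650, a gene of long noncoding RNA that the count tables do not list.

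The neutrophil and eosinophil chemokines were near the limit of detection and were not tested. Cxcl1 (gene ID 14825, chromosome 5 from 90891245 to 90893121) counted 17, 6, 16 and 10 reads in WT, 2, 14, 17 and 13 in Sp3+/- and 12, 13 and 8 in Sp3-/- libraries. Its highest level was 0.819 CPM, in Sp3-/- replicate 3, and the groups overlapped. Cxcl5 (gene ID 20311, chromosome 5 from 90759298 to 90761625) had 0 to 2 reads in every library and 2 reads in all in each genotype. Ccl11 (gene ID 20292, chromosome 11 from 82057832 to 82062955) had 1 read in WT replicate 2 and 3 reads in Sp3-/- replicate 2. It had 0 in the other 9 libraries, a count that allows a level of up to 0.305 CPM (3 reads) in the smallest of them, by counting error only.

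**Figure D2:**
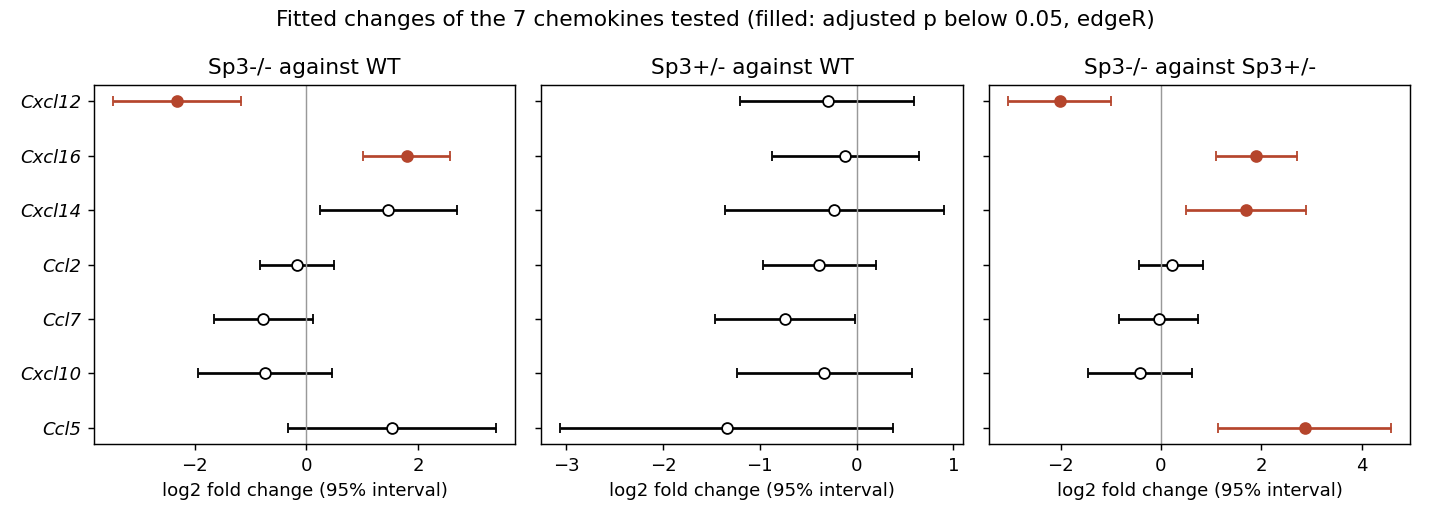
Log2 fold change (horizontal axes) with its 95% interval from edgeR for the 7 chemokines tested in each of the 3 comparisons of genotypes, filled where the adjusted p was below 0.05. Cxcl12 (-2.32 and -2.02) and Cxcl16 (1.80 and 1.90) are filled in both comparisons that involve Sp3-/- cells, and no gene is filled between Sp3+/- and WT.

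Sp3+/- cells were compared with WT cells to ask whether the loss of a single allele moved these transcripts. None of the 7 chemokines tested was called by edgeR, in a comparison in which 0 of 14130 genes (0%) were called. DESeq2, limma-voom and limma-voom with a consensus correlation also called 0 genes. At an unadjusted p below 0.05 there were 246 genes, among them a single chemokine, Ccl7. Ccl7 measured 1.55, 1.75, 2.48 and 1.85 log2 CPM in Sp3+/- replicates 1 to 4, 3 of which were below the WT range. Its log2 fold change against WT was -0.74 (95% interval -1.46 to -0.02, adjusted p = 1, edgeR). No chemokine separated the groups, as against 1.41% of all genes. The fitted log2 fold changes were all below 0, from -1.34 for Ccl5 to -0.12 for Cxcl16, but the signs for Cxcl14 and Cxcl16 turned under other settings. Cxcl12 measured 9.46, 9.99, 10.02 and 8.86 log2 CPM in Sp3+/- cells, within the WT range except for replicate 4, the library without a suffix. Its log2 fold change was -0.30 (95% interval -1.20 to 0.59). The interval for Cxcl16 was -0.87 to 0.64, for Cxcl14 -1.36 to 0.90, for Ccl2 -0.97 to 0.20, for Cxcl10 -1.24 to 0.57 and for Ccl5 -3.06 to 0.38.

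Sp3-/- cells were also compared with Sp3+/- cells, in a fit of all 11 libraries. The Sp3-/- libraries are the same as in the comparison with WT, and the results of both comparisons are not independent. Cxcl12 was lower, and Cxcl16 and Cxcl14 were higher, in Sp3-/- cells. Ccl5 was also called higher, but it passed the filter on low values only through Sp3-/- replicate 3. Of the 7 chemokines tested, Ccl5 included, 4 were called, 3 higher and 1 lower, and 25.5% of all 14130 genes were called, 13.0% higher and 12.5% lower. Over all genes the calls were 1838 higher and 1769 lower after TMM, and 1436 higher and 2171 lower after upper-quartile scaling. The groups did not overlap for 3 of the 7 chemokines, Ccl5 included, and for 34.2% of all genes. Whether these counts set the chemokines apart from other genes was not tested.

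Cxcl12 differed by -2.02 on the log2 scale from Sp3+/- cells (SE of the fit 0.47, adjusted p = 0.0135, edgeR), a 4.05-fold lower level, with all Sp3-/- libraries below all Sp3+/- libraries. Cxcl16 measured 3.33, 3.94, 3.74 and 4.67 log2 CPM in Sp3+/- cells, and the Sp3-/- cells were higher by 1.90 on the log2 scale (SE of the fit 0.36, adjusted p = 0.00712, edgeR). Both calls held when any single library of the 2 genotypes was left out. With the suffix covariate Cxcl16 remained called (1.12, adjusted p = 0.0271, edgeR) and Cxcl12 did not (-1.23, adjusted p = 0.120). With the suffixes taken from the file names the Cxcl16 call was lost as well (0.92, adjusted p = 0.694, edgeR). In that setting no Sp3+/- library shares the lack of a suffix with the Sp3-/- libraries. Among the libraries without a suffix, with a single Sp3+/- library, neither Cxcl16 (1.22, adjusted p = 0.362, edgeR) nor Cxcl12 (-1.24, adjusted p = 0.574) was called.

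Cxcl14 measured 2.10, 1.63, 1.42 and 3.07 log2 CPM in Sp3+/- cells. Sp3+/- replicate 4 was above Sp3-/- replicate 1, and the groups overlapped. The fitted log2 difference was 1.69 (SE of the fit 0.54, adjusted p = 0.0442, edgeR). It was lost without Sp3+/- replicate 1, 2 or 3 (adjusted p = 0.0938, 0.108 and 0.111, edgeR) and without Sp3-/- replicate 2 or 3 (adjusted p = 0.136 and 0.113). It was also lost with upper-quartile scaling (adjusted p = 0.0501) with the suffix covariate (0.82, adjusted p = 0.264) and among the libraries without a suffix (0.78, adjusted p = 0.690).

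Ccl5 counted 3, 5, 3 and 2 reads in Sp3+/- replicates 1 to 4, at -1.84, -2.74, -2.93 and -2.60 log2 CPM, all below the Sp3-/- libraries. The highest Sp3+/- library, replicate 1, was just below the lowest Sp3-/- library, replicate 1. The log2 fold change was 2.86 (standard error 0.78, 95% interval 1.13 to 4.59, adjusted p = 0.0251, edgeR). The call was lost without Sp3+/- replicate 2 (adjusted p = 0.0706, edgeR) or Sp3+/- replicate 3 (0.0741), and without Sp3-/- replicate 3 the gene was under the filter and not tested. It was also lost in a fit of the 2 genotypes alone (adjusted p = 0.053, edgeR), with the suffix covariate (3.61, adjusted p = 0.101), with file-name suffixes (4.30, adjusted p = 0.535) and among the libraries without a suffix (2.84, adjusted p = 0.638). Counts of 2 to 21 reads stand behind this value. Ccl2 (0.21, 95% interval -0.43 to 0.84), Ccl7 (-0.04, -0.83 to 0.74) and Cxcl10 (-0.41, -1.45 to 0.62) did not pass the test. Their levels in Sp3+/- replicates 1 to 4 were 2.57, 3.11, 3.34 and 3.54 log2 CPM for Ccl2 and 0.19, 0.01, 0.23 and 0.89 for Cxcl10.

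Cxcl16 and Cxcl14 tended to be higher, and Cxcl12 lower, in the libraries with more macrophage transcripts. The summed CPM of the 14 markers was 3660, 795, 693 and 986 in WT replicates 1 to 4, 419, 651, 730 and 3410 in Sp3+/- replicates 1 to 4, and 3470, 12500 and 11600 in Sp3-/- replicates 1 to 3. All 14 markers were detected in every genotype. Against WT, 7 of the 14 were called higher in Sp3-/- cells and none lower (median log2 fold change 2.34), with Lyz2 at 2.73 and C1qa at 2.70, and with the suffix covariate none was called (median 1.07). In the 3 libraries with 3410 to 3660 CPM of macrophage markers, which span the 3 genotypes, Cxcl14 measured 3.35 log2 CPM (WT replicate 1), 3.07 (Sp3+/- replicate 4) and 2.86 (Sp3-/- replicate 1). Cxcl16 in the same libraries measured 4.88, 4.67 and 5.57 log2 CPM, and Cxcl12 measured 9.04, 8.86 and 8.13. At this matched marker level the Sp3-/- library was thus the highest of the 3 for Cxcl16 and the lowest for Cxcl12, and the lowest for Cxcl14. These are single libraries, the grouping was made after the values were seen, and the part of the macrophage transcripts in the chemokine differences was not tested.

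**Figure D3:**
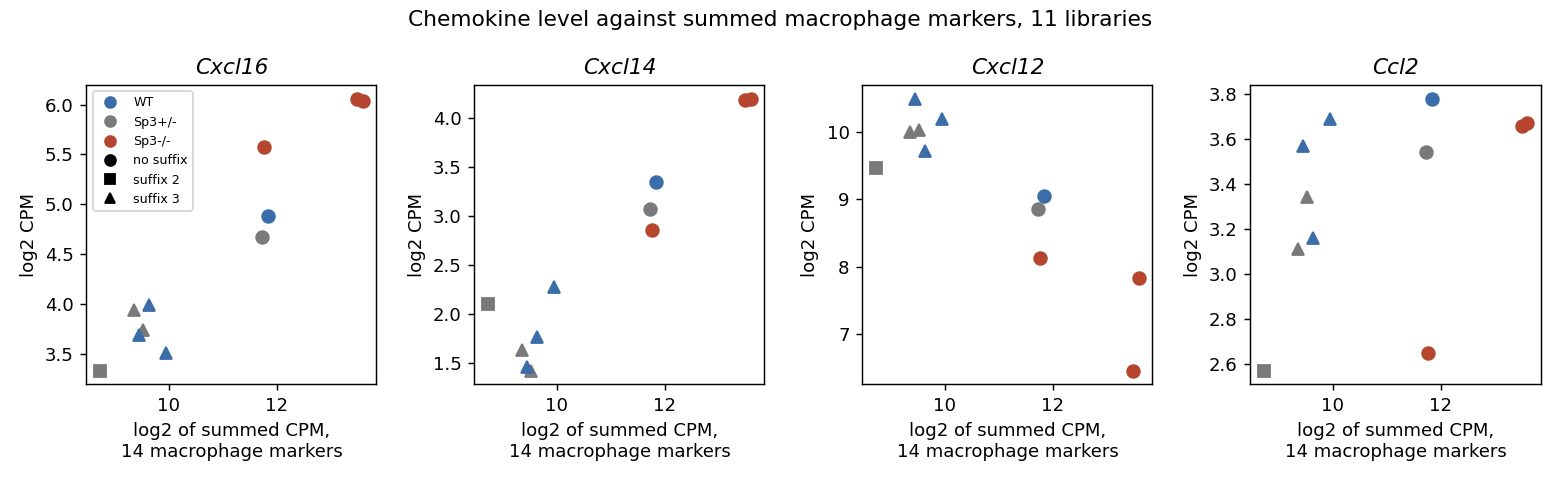
Level of Cxcl16, Cxcl14, Cxcl12 and Ccl2 in log2 CPM (vertical axes) against the log2 of the summed CPM of 14 macrophage markers (horizontal axes) in the 11 libraries, with colour for genotype and shape for title suffix. The libraries without a suffix lie to the right (3410 to 12500 CPM), and the others to the left (419 to 986 CPM).

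Markers of other cell types were examined in the same way, against a background of 8.76% of all genes called higher and 9.77% called lower in Sp3-/- against WT. Lymphoid markers summed to 0.205 to 0.852 CPM in a library, none passed the filter, and Cd3e of T cells had at most 2 reads. The neutrophil and mast cell markers summed to 2.06 to 45.1 CPM, most of it from Kit in the WT and Sp3+/- libraries. Kit, a receptor of mast cells and progenitors, was called lower in Sp3-/- against WT, and the other 2 tested were not called. The mast cell genes Cpa3 (0 to 7 reads) and Mcpt4 (0 to 30 reads) were not tested. Mcpt4 was higher in the Sp3-/- libraries (-1.43 to -0.46 log2 CPM) than in WT (-3.94 to -2.74). Endothelial markers summed to 41.5 to 136 CPM (1 of 9 tested called higher, none lower), epithelial markers to 25.2 to 179 CPM (3 of 8 higher, none lower) and erythroid markers to 1.98 to 15.9 CPM (1 of 1 higher). Among the called epithelial markers, Cdh1 and Epcam passed the filter on low values only through Sp3-/- libraries. Mesothelial markers summed to 832 to 2610 CPM in WT and Sp3+/- and to 6030, 3160 and 2300 CPM in Sp3-/- libraries, with 4 of 7 called higher and none lower. Of the 12 mesenchymal markers 4 were called lower, among them the pericyte and fibroblast receptor Pdgfrb at a log2 fold change of -2.13, and 1 was called higher, the proteoglycan gene Dcn at 1.32. The part of these cell types in the chemokine values was not tested.

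The receptors of these chemokines were mostly low. Cxcr4, the receptor of Cxcl12, measured 5.51, 2.80, 2.15 and 3.10 log2 CPM in WT, 2.26, 2.04, 2.55 and 5.14 in Sp3+/- and 4.74, 6.45 and 6.79 in Sp3-/- libraries. The libraries without a suffix held the 5 highest values. Sp3-/- cells differed from WT by 2.19 on the log2 scale (SE of the fit 0.86, adjusted p = 0.110, edgeR). Ackr3, the scavenger of Cxcl12, measured 3.82, 5.21, 5.09 and 4.62 log2 CPM in WT and 4.89, 4.31 and 2.66 in Sp3-/- libraries, with a log2 fold change of -0.53 (adjusted p = 0.479, edgeR). Cxcr6, the receptor of Cxcl16, measured -0.74, -1.55, -1.90 and -0.74 log2 CPM in WT and -0.40, 0.17 and 2.79 in Sp3-/- libraries, which did not overlap. Its log2 fold change was 2.74 against WT (adjusted p = 0.0628, edgeR) and 2.78 against Sp3+/- (adjusted p = 0.0271, edgeR). Cxcr3, the receptor of Cxcl10, had a log2 fold change of 1.32 (adjusted p = 0.344, edgeR). Cxcr2 had 0 to 5 reads, Ccr2 0 to 2 and Ccr3 0 to 11 in a library, and none of these was tested.

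Of 22 chemokine receptors 9 were tested, and in Sp3-/- against WT 3 were called higher and none lower (median log2 fold change 2.14, against 0 over all genes, of which 8.76% were called higher). They included the fractalkine receptor Cx3cr1 at 2.46 (adjusted p = 0.0184, edgeR) and Ccr1 at 2.14 (0.0415). Of the 27 chemokines not among the 10, 12 were tested and 3 were called higher, none lower, with a median of 0.61. These were Ccl3 (2.46, adjusted p = 0.0314, edgeR) and Ccl4 (2.39, 0.0370), which attract macrophages and other leukocytes, and Pf4, also named Cxcl4 (2.08, 0.0333). Ccl3 measured 3.92, 2.21, 1.86 and 2.4 log2 CPM in WT and 4.13, 5.73 and 5.57 in Sp3-/- libraries, with WT replicate 1 close to the lowest Sp3-/- library. With the suffix covariate none of the receptors or of these chemokines was called (medians 0.69 and 0.18).

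The closest relatives of the 10 genes were low. Cxcl2, next of kin of Cxcl1, had 0 to 36 reads and a fitted log2 difference of 1.18 between Sp3-/- and WT cells (adjusted p = 0.443, edgeR). It passed the filter on low values only through Sp3-/- replicate 3. Cxcl3 had 0 to 6 reads, Ccl8 1 to 37 and Ccl12 0 to 16, and these were not tested. Reads that align equally well to such relatives are tallied as not unique, so the counts of Cxcl1, Ccl2 and Ccl7 may lack reads from stretches that relatives share.

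Pathways that induce chemokines were followed by lists, whose counts stand beside 8.76% of all genes called higher and 9.77% called lower in Sp3-/- against WT. Of 36 NF-kB pathway genes 33 were tested, and 5 were called higher in Sp3-/- against WT and none lower (median log2 fold change 0.29). Among the called genes were the TNF receptor Tnfrsf1b (1.49, adjusted p = 0.0219, edgeR), the endotoxin receptor Tlr4 (1.27, 0.0385), the interleukin 1 receptor Il1r1 (0.93, 0.0148) and the cytokine Lif (0.74, 0.0218). Of 26 interferon response genes 25 were tested, 7 were called higher and 1 lower (median 0.34). The higher ones included the antiviral genes Oas1a (2.71, adjusted p = 0.0153, edgeR), Rsad2 (1.84, 0.0326), Oasl2 (1.45, 0.0304) and Bst2 (1.41, 0.0169), while Cxcl10, itself an interferon target, was not called. With the suffix covariate 2 NF-kB and 5 interferon genes were called higher and none lower.

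Of 13 genes that process, hold or regulate chemokines, 12 were tested, 3 were called higher and 1 lower in Sp3-/- against WT (median -0.19), beside 8.76% and 9.77% of all genes. Dpp4, a peptidase that trims and inactivates Cxcl12, was higher at a log2 fold change of 2.09 (adjusted p = 0.0320, edgeR). It measured 5.45, 5.88, 5.38 and 4.53 log2 CPM in WT and 8.30, 7.18 and 6.12 in Sp3-/- libraries. Adam17, a protease that sheds membrane proteins, was higher at 0.81 (adjusted p = 0.0229, edgeR), the heparan sulfate proteoglycan Sdc4 was higher at 0.92 (0.0266), and Hif1a, a hypoxia factor that can induce Cxcl12, was lower at -0.83 (0.0320). With the suffix covariate none of the 12 was called.

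The genes whose log2 CPM ran most like that of each chemokine over the 11 libraries were taken by Pearson's r among 14130 genes. The libraries share genotype, suffix and depth, so these values are descriptions. For Cxcl12 they were Wtip (r = 0.992), Arhgef25 (0.990) and the collagen gene Col5a1 (0.987). For Cxcl16 they were Plgrkt and Syngr1 (both 0.989) and the proteasome subunit Psmb10 (0.988), and for Cxcl14 Sh3bgrl3 (0.990), 2510039O18Rik (0.988) and Prex1 (0.986). The best values were lower for the other genes. Ccl2 ran most like D330045A20Rik (0.919), Sgk1 (0.909) and Slc41a2 (0.897), and Ccl7 most like Lrp4 (0.912), Cmtm3 (0.910) and Ksr1 (0.870). Ccl5 ran most like Npepps (0.905), Tob2 (0.904) and Mkl2 (0.903), and Cxcl10 most like Hist1h2bg (0.931), Phf5a (0.928) and Pvr (0.927). No gene appeared under more than 1 chemokine.

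**Figure D4:**
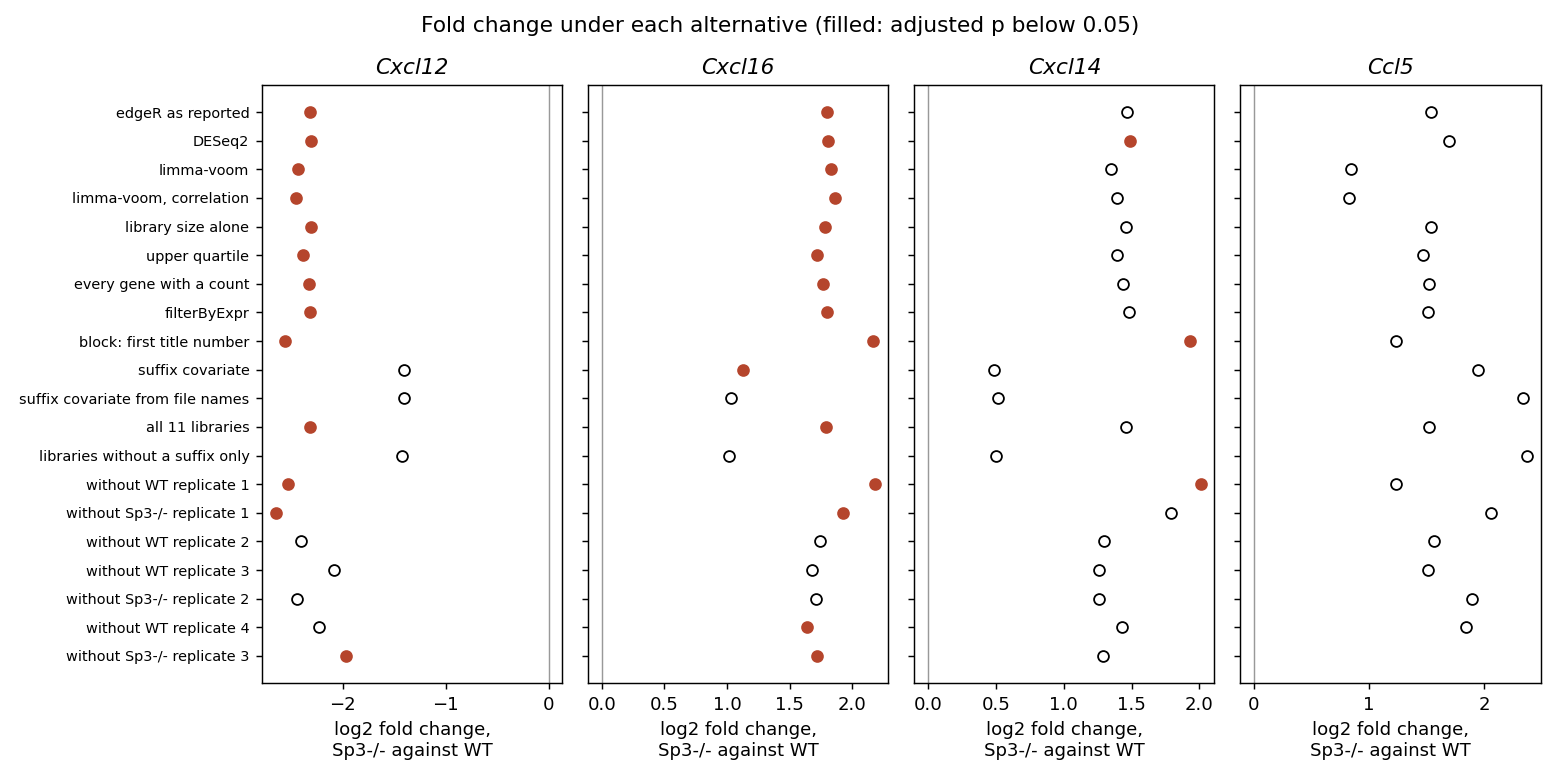
Log2 fold change of Cxcl12, Cxcl16, Cxcl14 and Ccl5 in Sp3-/- against WT (horizontal axes) under edgeR as reported and each alternative (rows), filled where the adjusted p was below 0.05. Ccl5 was under the filter without Sp3-/- replicate 3. The sign is the same in every row, Cxcl12 runs from -2.65 to -1.40 and Cxcl16 from 1.02 to 2.18, and the values nearest to 0 for both are those that take the title suffix into account.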

How the data were processed

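RNA-seq of 11 libraries of cultured fetal lung mesenchymal cells was analysed. Per the labels and the study's methods, TruSeq libraries gave single-end reads of 50 bp, which were checked with FastQC 0.10.1, aligned to mm10 with STAR 2.4.5a and counted per gene with htseq-count. The authors deposited a raw count for each gene symbol in each library, without normalization, and 5 tallies of unassigned reads. The tallies, 38.4% to 40.9% of each total, were left out. The annotation version and strand setting are not given in the sources used here.

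The quasi-likelihood test of edgeR 4.0.16 (R 4.3.3, TMM, glmQLFit with its robust option) was run on genes above 1 CPM in 1 or more of the fitted libraries, with Benjamini-Hochberg adjustment over all genes and calls below 0.05. The Sp3-/- against WT fit used 7 libraries, the others 11. Standard errors were derived from the F statistic. No 2 libraries of the same genotype were alike within counting noise. Alternatives were DESeq2 1.42.0, limma-voom (limma 3.58.1), other scalings, filters and sets of libraries, a block on the first title number, the title suffix as a covariate, and each library left out. The suffix from the file names was added after seeing the data, because the title and file name of Sp3+/- replicate 4 differ. Its file name carries suffix 2, its title none.

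The 10 chemokines and all gene lists were chosen with earlier results of these data known. All 10 are described. Of each list, at most 4 called genes with the largest change are named, together with the receptors and close relatives of the 10 and the 3 genes that run most like each. Values of 1 gene on the lists are left out of the text. Transcript lengths are those of GENCODE canonical transcripts. Coordinates and promoter sequences are from RefSeq (GRCm38.p6), read with Python 3.11.15. The edgeR step was tested on simulated data. The number of libraries limits the precision of every comparison.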

Additional observations from a re-analysis of the deposited data

How the results depend on the processing

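The number of chemokines called in Sp3-/- against WT, 2, ranged from 0 to 3 when single libraries were left out. It was 1 with the suffix covariate, 0 with the suffix taken from the file names and 0 among libraries without a suffix. In Sp3-/- against Sp3+/- the number, 4 with Ccl5 included, ranged from 2 to 4 without single libraries, and was 1, 0 and 0 under the same 3 settings. Other settings kept both numbers within 1.5 times. The libraries left out that end a call are named beside the values above. The cause of these losses was not tested, and fits of the libraries without a suffix rest on a single WT or Sp3+/- library. With file-name suffixes, the Sp3-/- libraries share their lack of a suffix only with WT replicate 1.

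Of 402 values of single chemokines, 349 kept direction and side of the threshold, 34 fell under it, 3 rose over it and 16, none of them of a called gene, changed sign. In Sp3-/- against WT, Ccl2 ran from -0.35 to 0.09 without single libraries. In Sp3+/- against WT, without single libraries Cxcl14 ran from -0.71 to 0.32 and Cxcl16 from -0.42 to 0.28, and Cxcl16 was 0.02 with the suffix covariate, 0.11 with file-name suffixes and 0.13 among libraries with suffix 3. In Sp3-/- against Sp3+/-, Ccl2 was -0.14, -0.13 and -0.16 with the suffix covariate, with file-name suffixes and among libraries without a suffix, and Ccl7 was 0.06 among the last and -0.27 to 0.30 without single libraries.

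The replicate numbers follow the order of deposit and pair nothing. Libraries sharing the first title number did not all deviate together (r from -0.62 to 0.34, above 0.1 in 7 of 14 pairs between genotypes). The labels do not say what the number marks, and these correlations cannot exclude that such libraries share more than it. With that number as a block, 3 chemokines were called against WT, Cxcl14 being added at 1.93 (adjusted p = 0.0111, edgeR), and 3 against Sp3+/-, Ccl5 being lost at 2.20 (adjusted p = 0.0818, edgeR). The block also gave 0.08 for Cxcl14 and 0.00 for Cxcl16 in Sp3+/- against WT and -0.02 for Ccl2 in Sp3-/- against Sp3+/-.

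Over all genes, the 2599 calls against WT became 4297 with DESeq2, 4031 with the block, 3977 with all 11 libraries, 1329 with the suffix covariate, 163 with file-name suffixes and 0 among libraries without a suffix, and 282 to 4179 without single libraries. The 3607 calls against Sp3+/- became 763, 0 and 0 under the 3 suffix settings and 1490 to 3706 without single libraries. Depth limits Cxcl5, Ccl11, Cxcl1 and Ccl5, whose counts stayed at or under 21 reads.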
